A study of Mus musculus with 14 samples.

Results

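The genes described here are the heat shock proteins and DnaJ cochaperones of the mouse striatum. They were taken by name: every probe set whose single gene symbol starts with Hsp followed by a, b, d, e, h or 90, or with Dnaj, and Cryab, the small heat shock protein αB-crystallin. This gave 62 genes on 125 probe sets, of 12393 genes on the array. A gene is represented by the brightest of its probe sets on average, and 37 of the 62 had more than 1. By known location, 41 work in the cytosol and nucleus, 10 in the endoplasmic reticulum and 8 in mitochondria, and 3 were put in no compartment. Hsp90ab1 and Dnajc6 were not analysed here, and Dnajc19 was left out because its 2 probe sets also name a pseudogene.

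The study hybridised striatal total RNA of 6-week-old mice to an Affymetrix array, 7 arrays from R6/2 mice and 7 from wild-type mice, all on a mixed CBA and C57BL/6 background. R6/2 mice model Huntington disease: a transgene expresses exon 1 of human HTT, its CAG repeat expanded, from the human promoter, and the mouse gene is kept. Both genotypes had been given normal saline 30 to 60 minutes before they were killed, as the control arms of drug studies. Sample titles starting M.C marked one cohort, 4 arrays per genotype (replicates 1 to 4), and titles starting Mith the other, 3 per genotype (replicates 5 to 7). Nothing in the labels ties the arrays to separate animals, and the p-values therefore reflect array-to-array spread, which may be technical.

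Chaperones bind unfolded protein and keep it from aggregating. HSP70 proteins do this in cycles of ATP hydrolysis: a DnaJ protein delivers the client and starts hydrolysis, and an exchange factor such as an HSP110 protein frees it. HSP90 acts later on nearly folded clients, small heat shock proteins hold unfolded ones without using ATP, and HSP60 with HSP10 encloses them in mitochondria. Heat shock factor drives the cytosolic set, and the unfolded protein response drives that of the reticulum. Mutant huntingtin fragments aggregate in R6/2 neurons, and HSP70, DNAJB1 and DNAJB6 are known to bind or hold back polyglutamine aggregates.

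Values are log2 signals with every array centred on the same median. A difference is R6/2 minus wild-type, fitted with cohort as a term unless a cohort is named, and ± is its SE. A gene is called at a limma adjusted p under 0.05, with Benjamini-Hochberg adjustment over all 22626 probe sets. Levels are not compared between genes, since probe sets differ in brightness.

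Striatal identity was clear on all arrays: the 4 measured genes shared by projection neurons (Ppp1r1b, Pde10a, Rgs9 and Rasd2) lay above the array median on every one. Their mean ranged from 9.71 to 10.13 in R6/2 and from 10.07 to 11.01 in wild-type, and all 4 were called lower in R6/2. R6/2 replicate 4 had the lowest mean rank correlation with the other arrays of its cohort, 0.981. Wild-type replicate 5, at 10.07 for those 4 genes, was the lowest wild-type array. A measure of RNA degradation, the Actb control signal at the 3′ end minus that at the 5′ end, averaged 0.608 ± 0.181 (SD) over the 7 R6/2 arrays. The 7 wild-type arrays averaged 0.373 ± 0.143 (SD), and the exact two-sided permutation p was 0.0210, or 0.0321 adjusted over 2 measures. The same measure from Gapdh averaged 0.217 in R6/2 and 0.0262 in wild-type (exact two-sided permutation p = 0.0321, adjusted 0.0321), and in M.C it was 0.337 against 0.0531, but in Mith 0.0578 against -0.0095. In whole striatum, fewer cells of a type and less RNA per cell cannot be told apart.

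Over both cohorts, 2 of the 62 chaperone genes were lower in R6/2 and 0 were higher. The 2 were Cryab, at 68.2% of the wild-type signal, and Hsp90b1, the HSP90 of the endoplasmic reticulum also called GRP94, at 71.8%. Of all probe sets 2.55% were called, 2.19% lower and 0.362% higher, so the share among chaperones, 3.23%, was near the background. Of the 62, 30 lay below 0, beside 45.2% of all probe sets, and their median was 0.0016, beside 0.011. At an unadjusted p under 0.05 there were 10 of 62, where 15.2% of all probe sets passed.

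**Figure D1:**
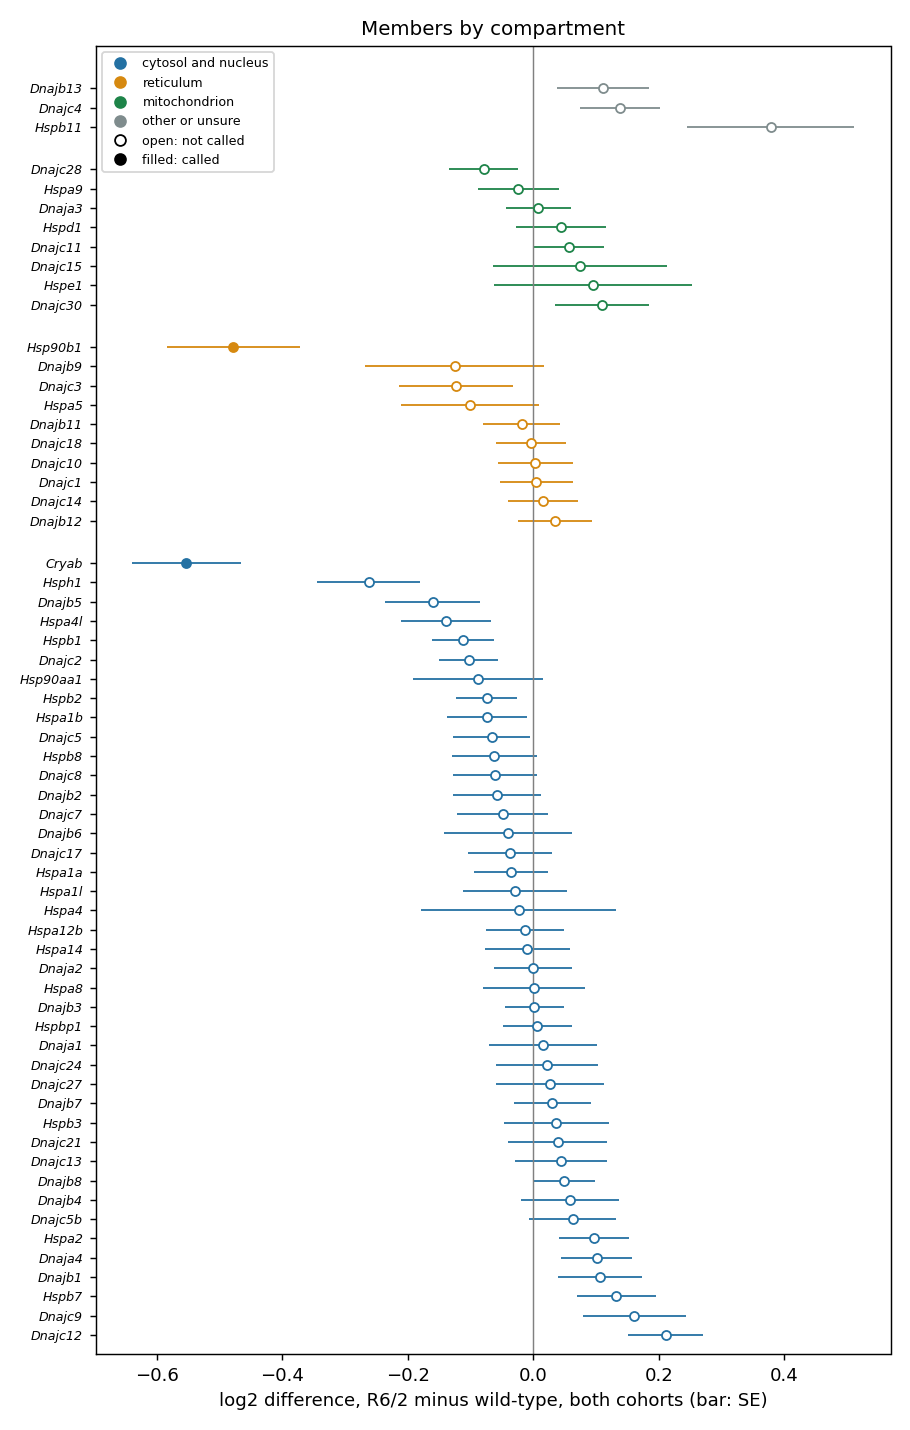
Each point is the log2 difference, R6/2 minus wild-type over both cohorts, of 1 of the 62 chaperone genes on the horizontal axis, with its SE, grouped by compartment on the vertical axis; filled points were called. Only Cryab (-0.55) and Hsp90b1 (-0.48) are filled, and most others lie close to 0.

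Cryab was the largest difference among the members and kept its call under more alternatives than Hsp90b1. In the M.C cohort its log2 signal was 8.30, 8.54, 8.23 and 7.95 on the R6/2 arrays and 8.73, 8.49, 8.92 and 8.97 on the wild-type arrays. In the Mith cohort it was 8.59, 8.37 and 8.61 in R6/2 and 9.16, 9.08 and 9.12 in wild-type. The groups were apart in Mith, and in M.C 1 wild-type array lay just below the highest R6/2 array. The difference was -0.55 ± 0.09 (adjusted p = 0.00295), with -0.52 ± 0.13 in M.C (adjusted p = 0.0646) and -0.59 ± 0.09 in Mith (adjusted p = 0.155). The M.C difference alone was called at -0.62 without R6/2 replicate 2 (adjusted p = 0.0328) or wild-type replicate 2 (0.0434). A second Cryab probe set was also called, at -0.46 ± 0.08 over both cohorts (adjusted p = 0.00795) and -0.45 ± 0.10 in M.C (adjusted p = 0.0383), while another, dim, with a mean signal of 4.70, was at 0.03, and the mean of the 3 gave -0.33 ± 0.05 (adjusted p = 0.00465). Fitted with the Actb 3′ to 5′ measure as covariate, Cryab was at -0.74 ± 0.09 (adjusted p = 0.00378).

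Oligodendrocytes are a main source of Cryab in brain, and their genes were lower in R6/2 as well. All 7 listed genes of mature oligodendrocytes were measured and lay below 0 over both cohorts, with a median of -0.38, and 4 were called lower: Ugt8a, Cldn11, Mobp and Mag. Their mean level ranged from 9.31 to 9.60 in R6/2 and 9.59 to 10.13 in wild-type M.C arrays, and from 10.05 to 10.36 in R6/2 and 10.49 to 10.72 in wild-type Mith arrays. On every array 5 of the 7 lay above the array median. Cryab was also lower in M.C than in Mith, by genotype-adjusted -0.31 ± 0.09 (adjusted p = 0.0134), as were all 7 of these genes, with a median of -0.84. Other marker lists were lower in R6/2 too. The 4 genes of oligodendrocyte precursors had a median of -0.18 with 1 called, and their mean level did not overlap, at 7.44 to 7.64 in R6/2 and 7.65 to 7.81 in wild-type. Of 5 interneuron genes 3 were called, their median was -0.31, and they did not overlap either, at 8.26 to 8.53 against 8.55 to 8.84. Of 6 astrocyte genes 1 was called and their median was -0.23, while 0 of 5 microglial genes were called. The part of any of these lists in the Cryab difference was not tested.

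**Figure D2:**
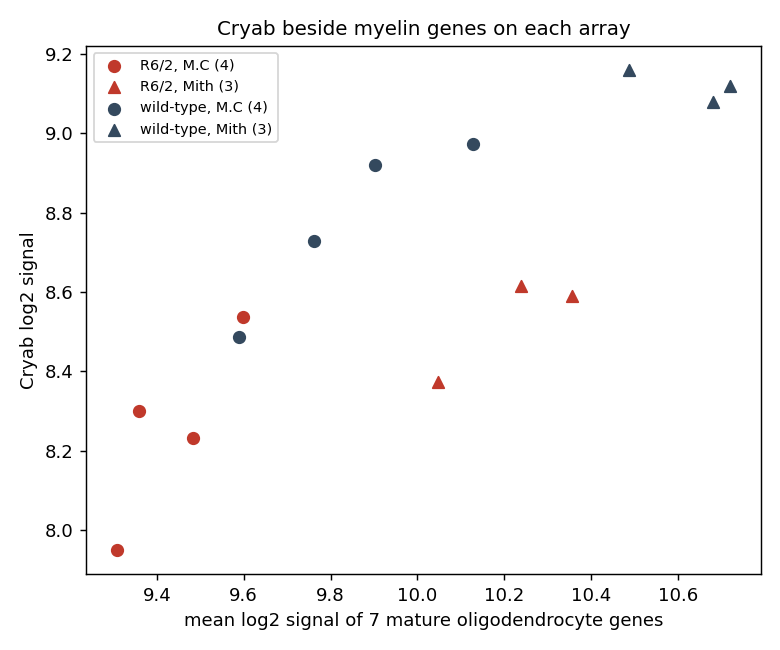
Each point is 1 array, with the mean log2 signal of 7 mature oligodendrocyte genes on the horizontal axis and the Cryab log2 signal on the vertical axis; circles are M.C and triangles Mith. Within each cohort the R6/2 arrays lie lower on both axes than most wild-type arrays, and the M.C arrays lie left of the Mith arrays for the same genotype.

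The differences of the other small heat shock proteins were nearer to 0. Hspb1 (HSP27), the stress-induced partner of Cryab, was at 8.92, 8.99, 9.01 and 8.99 in R6/2 and 9.04, 9.20, 9.13 and 9.25 in wild-type M.C arrays. In Mith it was at 8.69, 8.79 and 8.70 against 8.74, 8.79 and 8.74. The M.C groups did not overlap but lay close, the Mith groups overlapped, and the difference over both was -0.11 ± 0.05 (adjusted p = 0.288). Hspb2, which overlaps Cryab on chromosome 9 in the RefSeq annotation (GRCm38.p6), was at -0.07, beside Cryab at -0.55. Hspb8, which works with the exchange factor Bag3 in selective autophagy, was at -0.06, and Hspb3 and Hspb7, best known from muscle, were at 0.04 and 0.13. None of these 5 was called.

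Among the HSP110 exchange factors Hsph1 (HSP105) stood out in M.C. Its log2 signal there was 9.96, 10.21, 10.20 and 9.87 in R6/2 and 10.51, 10.53, 10.45 and 10.55 in wild-type. In Mith it was 10.43, 10.24 and 10.34 in R6/2 and 10.32, 10.22 and 10.50 in wild-type. All 4 M.C R6/2 arrays were below all 4 wild-type arrays, and the Mith groups overlapped. Hsph1 was called in M.C at 73.3% of wild-type (-0.45 ± 0.09, adjusted p = 0.0189), was at -0.01 ± 0.10 in Mith, and at -0.26 ± 0.08 over both (adjusted p = 0.109). The M.C call was lost without R6/2 replicate 1 (adjusted p = 0.0771) or wild-type replicate 1 (0.0581), 2 (0.0597) or 4 (0.0700), with differences from -0.45 to -0.42.

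The dimmer Hsph1 probe set, examined after its values were seen, was called over both cohorts at -0.39 ± 0.08 (adjusted p = 0.0176) and in M.C at -0.55 ± 0.07 (adjusted p = 0.00424). In M.C it read 8.53, 8.66, 8.79 and 8.61 in R6/2 and 9.14, 9.22, 9.13 and 9.29 in wild-type, again without overlap. In Mith it read 8.88, 8.75 and 8.57 in R6/2 and 8.91, 8.71 and 9.11 in wild-type, where the groups overlapped. With the Actb covariate it was at -0.31 ± 0.10 and not called (adjusted p = 0.250). Hspa4l, a close relative of Hsph1, had differences of -0.25 ± 0.08 (M.C) and 0.00 (Mith), and Hspa4, the remaining HSP110 protein, of -0.06 and 0.03. Neither was called.

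The main cytosolic machines were not called in any genotype comparison. Hspa8 (HSC70), the constitutive HSP70 of neurons, was at 12.13, 12.13, 12.29 and 11.72 in R6/2 and 12.06, 12.05, 12.10 and 12.18 in wild-type M.C arrays, and at 12.28, 12.14 and 12.29 against 12.01, 12.14 and 12.43 in Mith. The genotypes overlapped in both cohorts and the difference was 0.00 ± 0.08. Hsp90aa1, the inducible cytosolic HSP90, ranged from 10.56 to 11.28 in R6/2 and from 10.85 to 11.24 in wild-type and was at -0.09 ± 0.10. The stress-induced HSP70 genes Hspa1a and Hspa1b were at -0.03 ± 0.06 and -0.07 ± 0.06. Their mean signals, 5.13 and 5.57, lay below the array medians of 7.067 to 7.175, and detection of these genes was not examined. These 2 are near-identical neighbours on chromosome 17, so their probe sets may share signal.

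DnaJ proteins of the cytosol, which choose the clients of HSP70, gave 0 calls as well. A dimmer, cross-hybridising probe set of Dnajc2, a ribosome-bound DnaJ protein, was called lower in M.C (-0.47 ± 0.09, adjusted p = 0.0212), where its 3 other probe sets were not. Dnajb1 (HSP40), the heat-induced partner of HSP70, was at 0.11 ± 0.07 over both cohorts (adjusted p = 0.497). Its dimmer probe set had the opposite sign, at -0.13 ± 0.10 over both and -0.30 ± 0.13 in M.C, and was not called. Dnajb2, a neuronal form with ubiquitin-binding motifs, was at -0.06 ± 0.07. Dnajc5, the cysteine string protein of synaptic vesicles, was at -0.07 ± 0.06. Dnajc8, found with splicing factors, was at -0.06 ± 0.07.

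Dnajb6, a suppressor of polyglutamine aggregation, was at 9.67, 9.62, 9.69 and 9.34 in R6/2 and 9.78, 9.77, 9.80 and 9.98 in wild-type M.C arrays. In Mith it was at 10.23, 10.08 and 10.22 against 10.29, 9.74 and 9.77. R6/2 was thus lower without overlap in M.C, while in Mith 2 wild-type arrays were lower and wild-type replicate 5 was the highest of all. The differences were -0.25 ± 0.09 in M.C (adjusted p = 0.182) and 0.24 ± 0.14 in Mith (adjusted p = 0.662). Without wild-type replicate 5 the second was 0.42 ± 0.10 (adjusted p = 0.106). The dimmer Dnajb6 probe sets were at -0.08, 0.14 and -0.23 in M.C and 0.03, 0.08 and -0.01 in Mith, none called. Dnaja1, the main DnaJ partner of Hspa8 in the cytosol, differed by -0.18 ± 0.09 in M.C and by 0.27 ± 0.10 in Mith, where R6/2 lay above wild-type without overlap. Its M.C difference was -0.10 ± 0.08 without R6/2 replicate 4. Dnajb5 was at -0.32 ± 0.09 in M.C, without overlap, and at 0.06 ± 0.08 in Mith.

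On the higher side, Dnajc12, a cochaperone of the aromatic amino acid hydroxylases, came closest to a call. It was at 7.73, 7.87, 7.81 and 7.57 in R6/2 and 7.55, 7.56, 7.60 and 7.70 in wild-type M.C arrays, and at 8.11, 8.05 and 8.0 against 7.70, 7.68 and 7.89 in Mith. The Mith groups were apart, and in M.C only R6/2 replicate 4 lay among the wild-type arrays. The difference was 0.21 ± 0.06 (adjusted p = 0.0712), and it was called at 0.25 ± 0.05 without R6/2 replicate 4 (adjusted p = 0.0162). Dnajc9, a histone chaperone, was at 0.16 ± 0.08.

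Hspb11 carries a heat shock name but is a subunit of the intraflagellar transport complex of cilia. Its difference of 0.38 ± 0.13 was the largest upward one and was not called (adjusted p = 0.159). Wild-type replicate 5 read 7.28, while the other wild-type arrays ranged from 6.13 to 6.61 and R6/2 from 6.31 to 7.46. Without that array it was called at 0.48 ± 0.12 (adjusted p = 0.0305), and without R6/2 replicate 4 it was called in M.C, at 0.37 ± 0.08 (adjusted p = 0.0289). A second probe set, with a mean signal of 3.55, was at -0.02. Hspbp1, an exchange factor of HSP70, was at 0.01 ± 0.06.

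In the endoplasmic reticulum Hsp90b1 was the called member. This HSP90 folds integrins and Toll-like receptors and binds calcium in the lumen. In M.C its log2 signal was 8.61, 8.42, 8.87 and 8.61 in R6/2 and 9.07, 9.49, 9.27 and 9.44 in wild-type, and in Mith 9.11, 8.93 and 9.03 in R6/2 and 9.19, 8.97 and 9.49 in wild-type. All M.C R6/2 arrays were below all M.C wild-type arrays, and the Mith groups overlapped.

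The Hsp90b1 difference was -0.48 ± 0.11 over both cohorts (adjusted p = 0.0223), -0.69 ± 0.11 in M.C (adjusted p = 0.00920, 62% of wild-type) and -0.20 ± 0.13 in Mith (adjusted p = 0.707). The M.C call held with each of the 8 arrays left out in turn, from -0.77 to -0.62. The call over both was lost without R6/2 replicate 1 (-0.46, adjusted p = 0.0593) or wild-type replicate 3 (-0.47, 0.0565), 4 (-0.44, 0.0580) or 7 (-0.45, 0.0568). With the Actb covariate it was at -0.32 ± 0.12 (adjusted p = 0.339). The second Hsp90b1 probe set was at -0.22 ± 0.12 over both and -0.47 ± 0.13 in M.C and was not called (adjusted p = 0.424 and 0.103).

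**Figure D3:**
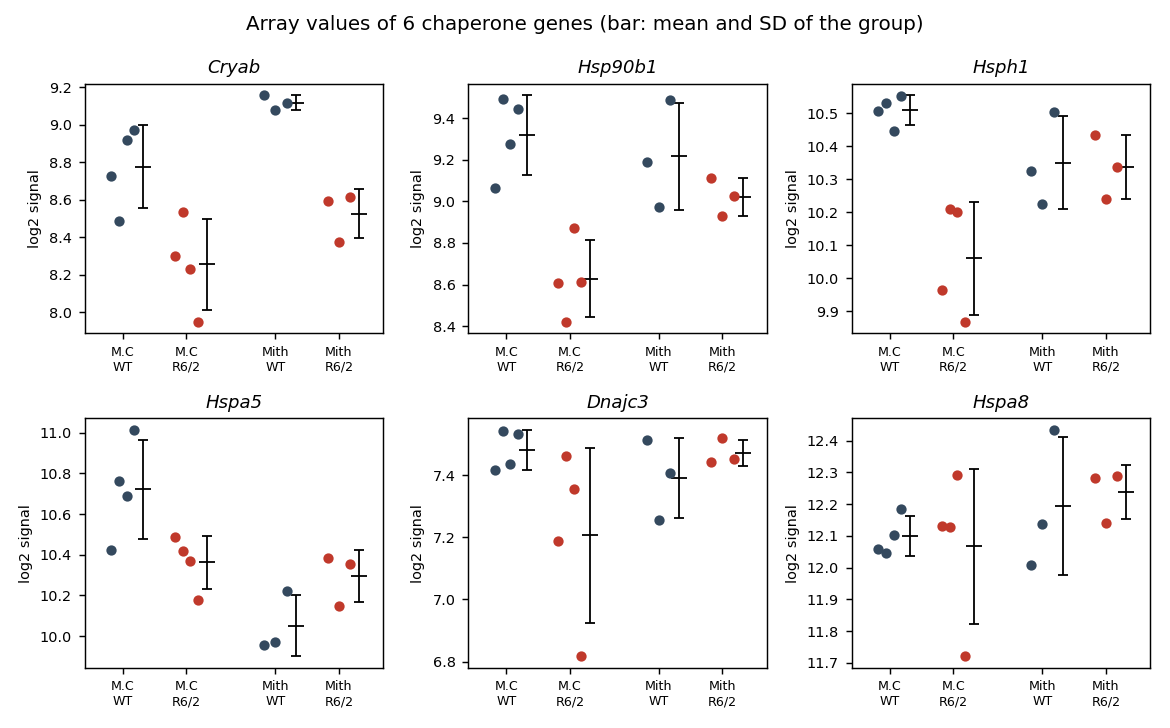
Log2 signal (vertical axis) of 6 chaperone genes on each array, by cohort and genotype (horizontal axis; WT, wild-type), with the group mean and SD beside the points. Cryab is lower in R6/2 in both cohorts, Hsp90b1 and Hsph1 are lower without overlap in M.C and overlap in Mith, and the single low R6/2 points of Dnajc3 and Hspa8 in M.C are replicate 4.

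The other lumenal chaperones had differences of opposite sign in the cohorts. Hspa5 (BiP or GRP78), the HSP70 of the reticulum and sensor of unfolded protein, was at 10.49, 10.42, 10.37 and 10.18 in R6/2 and 10.42, 10.76, 10.69 and 11.01 in wild-type M.C arrays. In Mith it was at 10.39, 10.15 and 10.35 against 9.95, 9.97 and 10.22. Most M.C wild-type arrays were higher than R6/2 and most Mith wild-type arrays lower, and the groups overlapped in each cohort. The differences were -0.36 ± 0.12 in M.C (adjusted p = 0.142) and 0.24 ± 0.11 in Mith (adjusted p = 0.541), and its second probe set gave -0.44 and 0.30. The difference between these, -0.60, had the smallest p among the 62 in the interaction test, 0.0025 unadjusted, with adjusted p = 0.324.

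Dnajc3 (p58IPK), a BiP cochaperone, was at 7.19, 7.46, 7.36 and 6.82 in R6/2 and 7.42, 7.54, 7.44 and 7.53 in wild-type M.C arrays. The M.C groups overlapped, and R6/2 replicate 4 was the lowest. Its M.C difference was -0.28 ± 0.12 and its Mith difference 0.08 ± 0.09, and these were -0.15 ± 0.08 without R6/2 replicate 4 and 0.14 ± 0.10 without wild-type replicate 5. Dnajb9 (ERdj4), which helps clear misfolded protein from the lumen, was at -0.37 ± 0.18 and 0.20 ± 0.13, and at -0.15 ± 0.09 in M.C without R6/2 replicate 4. Dnajb11 (ERdj3), which binds nascent chains with BiP, was at -0.11 ± 0.07 and 0.10 ± 0.10. None of the 3 was called. The remaining reticulum members, Dnajb12, Dnajc1, Dnajc10, Dnajc14 and Dnajc18, lay between -0.0038 and 0.035 over both cohorts.

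Hsp90b1, Hspa5 and Dnajc3 share a promoter element, and their promoters are shown because these are the members that hold it. Promoters came from RefSeq (GRCm38.p6) for 50 of the 62 members and 27025 genes, and the 250 bases before each annotated start were searched, a gene counting once if any of its starts had a match. The ER stress response element, searched as CCAAT, then 9 bases of any kind, then CCACG on both strands, was found in 35 genes, 0.130% of all, and in 3 of the 50. The 250 bases before each start are printed in the direction of the gene, with the element in capitals: chr10:86705445-86705694 on the minus strand for Hsp90b1, chr2:34771840-34772089 on the plus strand for Hspa5 and chr14:118937682-118937931 on the plus strand for Dnajc3.
Hsp90b1: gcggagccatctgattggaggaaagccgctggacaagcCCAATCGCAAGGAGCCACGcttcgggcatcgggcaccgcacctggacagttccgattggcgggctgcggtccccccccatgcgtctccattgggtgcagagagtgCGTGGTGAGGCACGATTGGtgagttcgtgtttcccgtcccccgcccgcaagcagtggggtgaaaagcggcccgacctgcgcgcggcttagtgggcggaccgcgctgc
Hspa5: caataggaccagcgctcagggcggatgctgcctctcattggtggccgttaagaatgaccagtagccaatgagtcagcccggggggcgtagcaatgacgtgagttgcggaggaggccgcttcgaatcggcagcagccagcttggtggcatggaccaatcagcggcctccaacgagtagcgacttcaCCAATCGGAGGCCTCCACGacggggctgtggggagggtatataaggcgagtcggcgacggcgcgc
Dnajc3: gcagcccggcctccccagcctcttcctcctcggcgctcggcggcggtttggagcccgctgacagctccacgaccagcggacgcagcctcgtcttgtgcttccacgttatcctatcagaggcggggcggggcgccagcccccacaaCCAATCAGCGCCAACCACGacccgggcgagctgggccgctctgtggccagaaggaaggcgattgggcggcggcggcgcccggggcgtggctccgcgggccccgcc

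The Hsp90b1 promoter held 2 matches, one in each orientation, from 212 to 194 and from 107 to 89 bases before the start. The match lay from 65 to 47 bases before the start in Hspa5 and from 105 to 87 in Dnajc3. The M.C differences of these genes were -0.69, -0.36 and -0.28 and the Mith differences -0.20, 0.24 and 0.08, and Hsp90b1 alone was called. A match of letters is a description and not a measured site of binding.

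Genes of the same compartment outside the name rule were read from lists. The reticulum folding list, which holds lectin chaperones, disulfide isomerases and secreted stress factors, had 12 of 12 genes measured and 0 called over both cohorts or in either. In M.C 11 of the 12 lay below 0, with a median of -0.24, and in Mith 3 of 12, with a median of 0.09. Without R6/2 replicate 4 the M.C median was -0.16, with 12 of 12 below 0. The lowest in M.C were Pdia3, a disulfide isomerase (-0.47, adjusted p = 0.0579), Calr, the calcium-binding lectin calreticulin (-0.40, adjusted p = 0.0550) and Manf, a secreted stress factor (-0.31). In Mith these were at 0.10, 0.09 and 0.46. Of all probe sets 46.9% lay below 0 in M.C and 49.6% in Mith. On the reticulum stress signalling list, 12 of 12 measured and 0 called, Atf6, a membrane-bound transcription factor, was at -0.55 (M.C) and -0.02 (Mith). Without R6/2 replicate 4 it was called in M.C, at -0.34 ± 0.08 (adjusted p = 0.0330), as was Calr, at -0.31 ± 0.07 (adjusted p = 0.0411). Calr was also called there without R6/2 replicate 2 (-0.46, adjusted p = 0.0333), as was Xbp1 (-0.41, 0.0378), and Pdia3 without wild-type replicate 3 (-0.56, 0.0468). On all arrays Xbp1, the factor made by IRE1 splicing, was at -0.34 and 0.18, and Ddit3 (CHOP), a late stress factor, at -0.10 and 0.05. Across the 12 stress signalling genes the M.C median was -0.04 without R6/2 replicate 4, with 7 below 0 and 5 above. Their Mith median was -0.01 without wild-type replicate 5, with 8 below 0 and 4 above.

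Mitochondrial chaperones gave 0 calls of 8. Hspd1 (HSP60), the chaperonin of the matrix, was at 9.88, 10.04, 10.07 and 9.95 in R6/2 and 10.05, 10.09, 10.02 and 10.14 in wild-type M.C arrays, and at 10.41, 10.11 and 10.38 against 10.01, 9.96 and 10.26 in Mith. The groups overlapped in both cohorts. Its differences were -0.09 ± 0.07 in M.C and 0.22 ± 0.11 in Mith.

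Hspe1 (HSP10), the lid of the chaperonin, was at 8.81, 9.05, 8.75 and 8.39 in R6/2 and 9.02, 8.91, 8.78 and 8.94 in wild-type M.C arrays. In Mith it was at 9.92, 9.29 and 10.04 against 9.90, 9.02 and 9.03. Wild-type replicate 5 stood with the R6/2 arrays, and without it the Mith difference went from 0.43 ± 0.25 to 0.73 ± 0.19 (adjusted p = 0.135). The M.C difference was -0.16 ± 0.12, and -0.04 ± 0.09 without R6/2 replicate 4. Over both cohorts Hspe1 was at 0.10 ± 0.16 and Hspd1 at 0.04 ± 0.07.

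Hspd1 and Hspe1 lie head to head on chromosome 1 and their annotated spans overlap by 96 bases. The bases before the Hspe1 start, and before 1 of the 2 annotated Hspd1 starts, hold the same heat shock element of 3 units, searched as 3 alternating runs of GAA and TTC with 2 bases of any kind between them, starting with either. This was found in 0.514% of all genes with a promoter and in 3 of the 50 members with a promoter, the other being Dnajb6. Before the Hspe1 start, at chr1:55088059-55088076 on the plus strand (GRCm38.p6), it is the run given here whole in capitals, in which 2 matches overlap.
Hspe1: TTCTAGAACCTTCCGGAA

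By their brightest probe sets, the differences of these 3 genes were -0.16, -0.09 and -0.25 in M.C and 0.43, 0.22 and 0.24 in Mith, none called. The shorter element of 2 units, GAANNTTC or TTCNNGAA, is contained in the longer one. It was in 14.5% of all genes with a promoter and in 13 of the 50 members, 26%, among them Hsph1, Dnaja1, Hspb1, Hspa1a and Hspa1b. The median difference of those 13 was 0.02 over both cohorts, -0.09 in M.C and 0.04 in Mith.

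The other mitochondrial members were Hspa9 (mortalin), the import motor HSP70, at -0.02 ± 0.07, and Dnaja3 (TID1), its DnaJ partner, at 0.01 ± 0.05. Dnajc15, a DnaJ protein of the import motor, had an M.C difference of -0.11 and a Mith difference of 0.32. The first was 0.06 without R6/2 replicate 4, and the second 0.58 without wild-type replicate 5. The members Dnajc30, Dnajc11 and Dnajc28 were at 0.11, 0.06 and -0.08 over both. The mitochondrial folding and proteolysis list, which holds proteases and import factors such as Lonp1 and Timm44, had 11 of 11 measured and 0 called, with a median of 0.03.

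**Figure D4:**
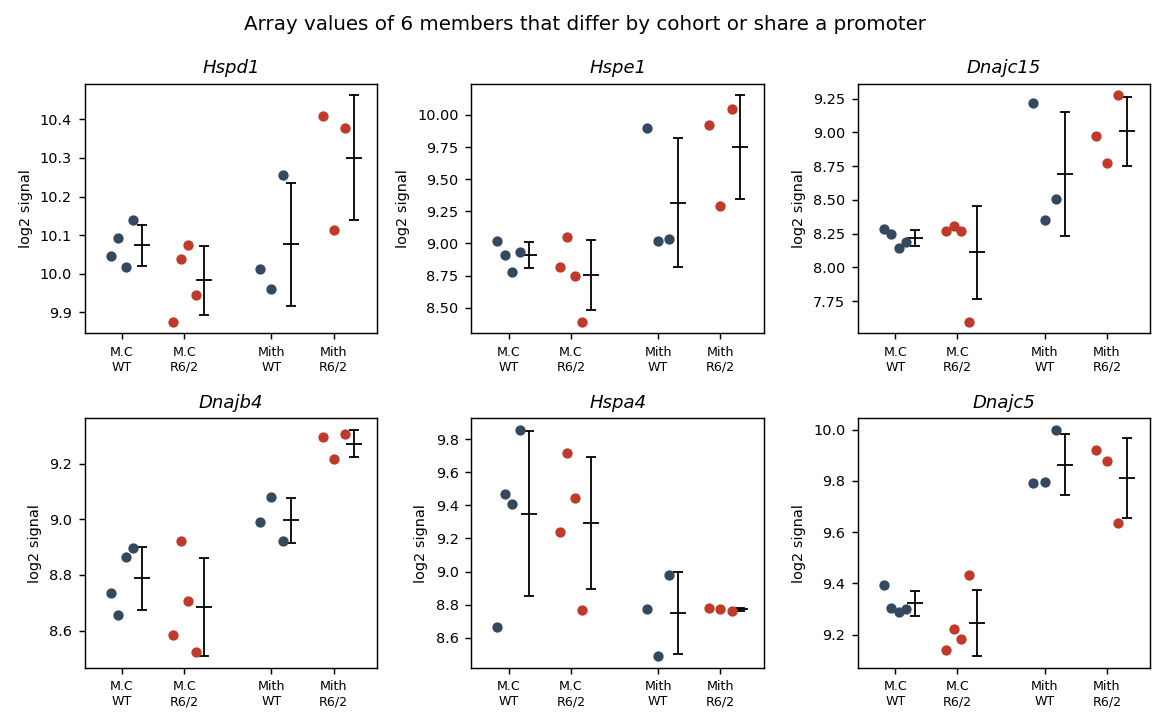
Log2 signal (vertical axis) of 6 members on each array, by cohort and genotype (horizontal axis; WT, wild-type), with the group mean and SD beside the points. Hspe1 and Dnajc15 share a high wild-type point in Mith, replicate 5. Dnajc5 and Dnajb4 are lower on the M.C than on the Mith arrays, and Hspa4, shown by its brightest probe set, is on average higher.

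The cohorts were then compared for the same genotype difference. In M.C 2 members were called lower, Hsp90b1 and Hsph1, and 0 higher, where 2.47% of all probe sets were called, 2.31% lower and 0.155% higher. In Mith 0 were called, as was 0% of all probe sets, and 5 of 62 members passed an unadjusted p under 0.05 beside 8.87%. R6/2 lay wholly below wild-type for 6 members in M.C (6.33% of all probe sets) and for 3 in Mith (6.34%), and wholly above for 1 (4.84%) and 6 (6.61%). The 6 lower ones in M.C were Hsp90b1, Hsph1, Hspa4l, Hspb1, Dnajb5 and Dnajb6. The 6 higher ones in Mith were Dnaja1, Dnajb4, Dnajc12, Dnajc13, Dnajc30 and Hspa2. No member was apart in the same direction in each cohort, where 1.05% of all probe sets were lower and 0.389% higher.

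Most members had a lower value in M.C than in Mith for the difference itself. In M.C 40 of 62 lay below 0, with a median of -0.06, and in Mith 22 of 62, with a median of 0.04. The medians of all probe sets were 0.01 and 0.0011. Without R6/2 replicate 4 the M.C count was 34 of 62, with a median of -0.03, and 6 members had changed sign. Without wild-type replicate 5 the Mith count was 25 of 62, with a median of 0.05, and 7 had changed sign. In all, 27 of 62 members, 43.5%, were below 0 in M.C and above 0 in Mith, as were 22.1% of all probe sets. Without R6/2 replicate 4 this was 21 of 62, 33.9%, beside 18.9%, and without wild-type replicate 5 it was 25 of 62, 40.3%, beside 20.6%.

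The interaction of genotype with cohort, which tests that gap gene by gene, called 0 of 62 members, as it called 0% of all probe sets. At an unadjusted p under 0.05 there were 12 of 62, beside 9.78% of all probe sets. The difference was lower in M.C for 11 of them, Hspa5, Hsph1, Dnaja1, Dnajb5, Dnajb6, Dnajb4, Hsp90b1, Hspd1, Dnajc7, Dnajb9 and Dnajc3. It was higher in M.C for Dnajc5b, by 0.30. The M.C difference was below the Mith difference for 46 of 62 members, with a median gap of -0.10, beside 50.3% of all probe sets. Across the 62 genes, which share the same arrays and are not independent, the differences in the cohorts had Pearson r = 0.236 and Spearman rho = -0.049. Projection neuron genes also differed by cohort: the median of the 4 shared genes was -1.0 in M.C and -0.46 in Mith. The 5 thalamic genes, a sign of neighbouring tissue, had a median of -0.06 in M.C and -0.56 in Mith, with 0 called. Their mean level in Mith was 7.51 to 8.05 in R6/2 and 8.01 to 8.74 in wild-type. The part of these cells, of RNA quality and of the dissection in the cohort gap was not tested.

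**Figure D5:**
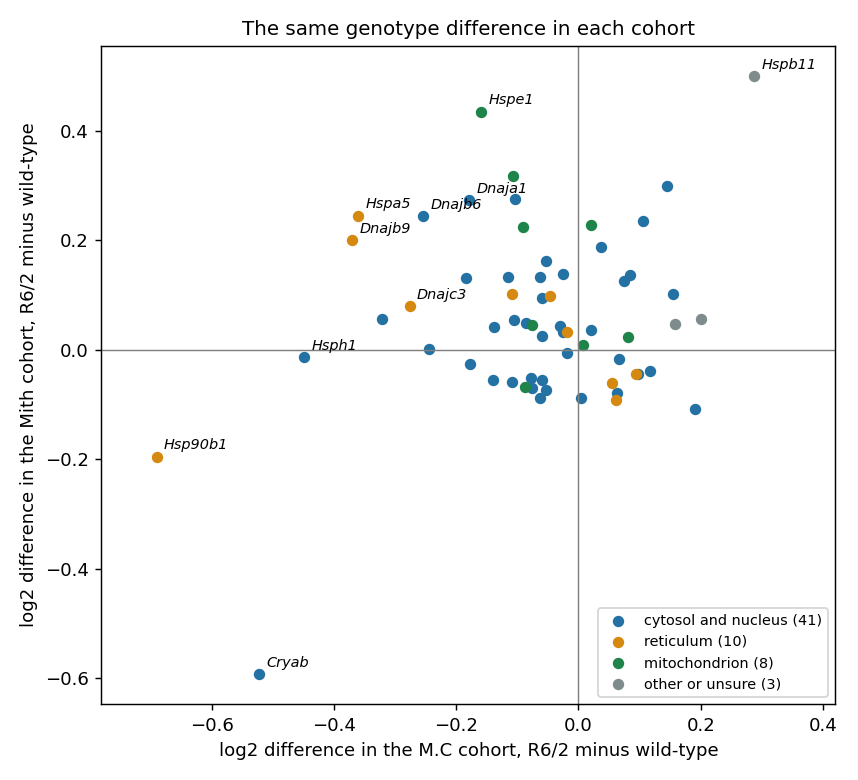
Each point is 1 of the 62 genes, with its log2 difference, R6/2 minus wild-type, in M.C on the horizontal axis and in Mith on the vertical axis, coloured by compartment. The upper left area, below 0 in M.C and above 0 in Mith, holds 27 genes, and Cryab is the lone gene far below 0 on both axes.

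The compartments were then set side by side. Over both cohorts the median was -0.01 in cytosol and nucleus, -0.01 in the reticulum and 0.05 in mitochondria. In M.C the medians were -0.06, -0.08 and -0.08, and in Mith 0.04, 0.06 and 0.13, in the same order. Without R6/2 replicate 4 the M.C medians were -0.03, -0.08 and 0.0044. Members below 0 in M.C and above 0 in Mith numbered 17 of 41 in cytosol and nucleus, 6 of 10 in the reticulum and 4 of 8 in mitochondria. Differences between compartments were not tested.

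More chaperone genes were called between cohorts than between genotypes. With genotype as a term 23 of 62 members were called between M.C and Mith, 37.1%, 11 lower and 12 higher in M.C, beside 32.3% of all probe sets, 17.0% lower and 15.3% higher, and 28 of 62 passed an unadjusted p under 0.05, beside 42.6%. Dnajc5 was at 9.14, 9.22, 9.18 and 9.43 in R6/2 and 9.39, 9.31, 9.29 and 9.30 in wild-type M.C arrays. In Mith it was at 9.92, 9.88 and 9.64 in R6/2 and at 9.79, 9.80 and 9.9997 in wild-type. No M.C array reached any Mith array on this probe set or on the dimmest of Dnajc5. Its other probe sets overlapped, the brightest of them reaching 9.58 in M.C against a low of 9.46 in Mith. The M.C minus Mith difference of the probe set used for Dnajc5 was -0.55. Hspe1 (-0.70), Dnajc15 (-0.68), Dnajb4 (-0.40) and Dnajb1 (-0.27) were also lower in M.C. Hspa4 (0.56), Hspa5 (0.37), Hspb1 (0.32) and Dnajb11 (0.24) were higher in M.C. For Hspa5 the M.C and Mith medians were 10.73 and 9.97 in wild-type but 10.39 and 10.35 in R6/2. Its second probe set read 8.50 to 9.08 in M.C against 8.15 to 8.44 in Mith wild-type arrays. In R6/2 that probe set read 8.20 to 8.47 in M.C against 8.42 to 8.75 in Mith. The Hspa4 value rests on its brightest probe set. Its dimmer ones were on average slightly lower in M.C, at 7.97 to 8.91 against 8.35 to 8.94 in Mith and at 6.51 to 7.38 against 6.94 to 7.38. Of the 10 reticulum members 4 were called and all 4 were higher in M.C, and of the 8 mitochondrial ones 3 were lower and 1 higher. What sets the cohorts apart is not given beyond the titles, so their causes cannot be told apart.

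Other partners of these chaperones were read from lists too. In all 72 of 76 listed pathway genes were measured. Over both cohorts 0 were called and 6 had an unadjusted p under 0.05, beside 2.55% and 15.2% of all probe sets. The heat shock factors Hsf2 and Hsf4 and the factor-binding protein Hsbp1 were at 0.04, 0.15 and 0.04. Hsf1, also on that list, was not measured. The 13 exchange factors and regulators of HSP70, among them the Bag proteins and Stub1, had a median of 0.0049, and the 9 measured HSP90 cochaperones, among them Cdc37 and Fkbp4, of 0.03. The cytosolic chaperonin and prefoldin genes, which fold actin and tubulin, had a median of 0.07 over both. In Mith all 12 measured lay above 0, with a median of 0.17, and in M.C 6 of 12 did, with a median of 0.0019. Of all probe sets 49.6% lay below 0 in Mith and 46.9% in M.C.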

How the data were processed

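The authors' deposited series table holds log2 probe set signals, from 2.96 to 14.5 with 0 missing; the unit was read from the values, and their summarisation and normalization steps are not given in the sources used here. Array medians spanned 0.108, so every array was centred on a common median. Of 22690 probe sets, 64 are controls and were dropped, leaving 22626. Symbols came from the platform table, updated by gene ID (20351 of 20380 single-symbol probe sets matched). limma 3.58.1 in R 4.3.3 was fitted on the whole table: genotype with cohort, each cohort alone, their interaction, and M.C against Mith. On simulated data with 22626 probe sets, 97.5% of changes of -0.6, 60% of changes of -0.3 and 47.5% of changes of 0.3 were called over both cohorts. The simulated errors were independent between probe sets, without shifts shared by a whole array.

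The members, compartments and gene lists were chosen with earlier results of these data known. Named members were those called over both cohorts or in the interaction, the brightest of each class, the 3 largest uncalled differences each way and a list of well-known chaperones, 28 in all; other names were chosen after their values were seen. Replicates are numbered in record order. Alternatives were no cohort term, deposited scale, quantile normalization, brighter probe sets, other variance models, array weights, an Actb covariate, a single probe set or the average of all those of a gene, passing over cross-hybridising probe sets, a threshold of 0.01 and each array left out. The number of arrays limits precision.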

Additional observations from a re-analysis of the deposited data

Results flagged for a closer look

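Single arrays stood far from the rest of their group for 10 of the 28 named members. Dixon's test at 95% marked 11 of 112 groups tested. A group was the 4 M.C arrays of a genotype or its 7 arrays of both cohorts, so the groups of 4 lie within those of 7. The groups of 7 pool cohorts that differ in level for some members. Chance marks about 1 in 20 separate groups of a single level, which is only a rough guide here. Wild-type replicate 5 was high for Hspe1, at 9.90 where the other wild-type arrays ranged from 8.78 to 9.03, and for Hspb11, at 7.28 where they ranged from 6.13 to 6.61. R6/2 replicate 4 was low for Hspa8, at 11.72 where the other R6/2 arrays ranged from 12.13 to 12.29, and for Dnajb9, at 8.12 where they ranged from 8.95 to 9.55. Wild-type replicate 7 was high for Hspa8, at 12.43 against 12.01 to 12.18, and for Dnajb1, at 8.73 against 8.19 to 8.40. Within the M.C wild-type arrays, replicate 4 was high for Dnajb6 (9.98 against 9.77 to 9.80) and Hspa9 (8.90 against 8.56 to 8.62). Replicate 1 was high there for Dnajc5 (9.39 against 9.29 to 9.31) and low for Dnajc9 (7.56 against 7.75 to 7.79). Within the M.C R6/2 arrays, replicate 2 was high for Dnajb2, at 8.78 against 8.40 to 8.46.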

How the results depend on the processing

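The 28 named members gave 725 values under the alternatives: 704 kept their side of the threshold, 11 lost a call, 10 gained one, and 0 that were called changed sign. The members called lower over both cohorts, 2, came to 0 with no cohort term and to 1 with the Actb 3′ minus 5′ covariate or at a threshold of 0.01, and to 1 to 2 with 1 array left out. Those called higher, 0, came to 1 on the deposited scale, after quantile normalization and with a gene's probe sets averaged (Dnajc12 each time), to 2 with array weights (Dnajc12 and Hspb11), and to 0 to 1 with 1 array left out. In M.C the 2 called lower came to 1 at a threshold of 0.01 and to 1 to 3 with 1 array left out, and the 0 called higher to 0 to 1, the 1 being Hspb11 without R6/2 replicate 4. The pathway genes called over both cohorts, 0, came to 1 with array weights (Sel1l, at -0.25) and to 0 to 2 with 1 array left out. Sel1l was called without R6/2 replicate 5 (-0.31), and Sel1l (-0.31) and Hscb (0.20) were called without wild-type replicate 5. In M.C 5 pathway genes were called under at least 1 alternative (Calr, Pdia3, Xbp1, Atf6 and Bag4), and in Mith 0. Members higher in M.C than in Mith, 12, came to 6 at 0.01. The mitochondrial median of 0.05 was -0.058 with the Actb covariate and -0.081 in M.C alone. Cryab kept its call over both cohorts in all but 3 of 26 alternatives: no cohort term (adjusted p = 0.0507) and each cohort alone. Hsp90b1 also lost its call with no cohort term (adjusted p = 0.0889) and with the mean of its probe sets (-0.35, adjusted p = 0.0857). Hsph1 gained one with array weights (-0.27, adjusted p = 0.0242) and with the mean of its probe sets (-0.33, adjusted p = 0.0285), as in M.C alone. Values of the second Hsph1 probe set, and of Hsp90b1 and Hsph1 in M.C under each setting, and of pathway lists and member signs without R6/2 replicate 4 or wild-type replicate 5, were added after seeing the data. Apart from what a left-out array or stricter threshold removes, the cause was not tested. No paired analysis was possible because replicates are numbered only in record order and the labels pair no arrays. No raw scans were used here, so signal over background was not examined.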
